A study of Mus musculus with 4 samples.

Results

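A set of 5 genes was followed here that code for enzymes of cholesterol synthesis, in the order in which the pathway uses them: Acat2, Idi1, Fdps, Lss and Ebp. They were taken by symbol from a table of 420 transcript clusters that the authors deposited, in which 369 genes carried a symbol of their own. A transcript cluster is the unit into which this Affymetrix array groups its probes. The 5 genes had 6 rows, since Idi1 had 2, and the array values of these rows were read among all 35557 clusters. The table holds only clusters that differed by at least 1.45-fold between the groups on these same arrays, so the presence of the 5 genes in it and their direction are not independent evidence.

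Total RNA of whole spinal cord from mice at postnatal day 14, of a mixed c57.129 background, had been hybridised to 4 arrays. The 2 Sip1 cKO arrays came from Sip1c/c;Olig1-Cre mice, in which both copies of Sip1, now named Zeb2, were conditional alleles. The 2 control arrays came from Sip1c/+;Olig1-Cre littermates, which carried a conditional copy and a normal one and the same Cre. The recombinase is driven from Olig1, a gene of the oligodendrocyte lineage, so the cord also holds many cells in which recombination is not directed, and each sample is a mixture of cell types. How many animals went into each sample was not given in the sources used here. Zeb2 itself read 10.29 and 10.47 on the control arrays and 8.61 and 8.66 on the Sip1 cKO arrays, on the log2 scale. It fell by 1.75 (limma, adjusted p = 0.0144), and every array followed its label. Only 2 arrays per group limit the precision of every value.

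Cholesterol is the main sterol of myelin, and oligodendrocytes make most of what they need themselves because the sterol hardly crosses from the blood. The pathway starts with acetyl-CoA, builds isoprenoid units through mevalonate, joins them into farnesyl diphosphate and then squalene, folds squalene into the ring of lanosterol and trims lanosterol to cholesterol. Genes of the pathway are known to be switched on together by the SREBP factors when cells are short of sterol. Acat2, Idi1 and Fdps act before squalene, in the part that also feeds other isoprenoids, and Lss and Ebp act after it, in the part that serves sterols.

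Promoter sequences are shown for Idi1, Lss and Ebp because genes of this pathway are known for shared promoter elements, and these 3 windows held letters of a motif searched for. The RefSeq promoter table of build GRCm38.p6 gave a window of 300 bases, on the strand of the gene, for 4 of the 5 genes, Acat2, Idi1, Lss and Ebp. Capitals mark CCAAT or its reverse ATTGG, the box of the factor NF-Y, and CACCTG or its reverse CAGGTG, an E-box that Zeb2 is known to bind. No 2 matches overlapped.
Idi1, chr13:8885356-8885655, plus strand: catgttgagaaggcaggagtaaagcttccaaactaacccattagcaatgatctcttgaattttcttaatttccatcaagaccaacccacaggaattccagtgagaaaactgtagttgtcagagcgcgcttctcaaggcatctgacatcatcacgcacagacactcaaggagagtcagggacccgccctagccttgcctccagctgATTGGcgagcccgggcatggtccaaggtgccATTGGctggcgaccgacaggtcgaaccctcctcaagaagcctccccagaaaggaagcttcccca
Lss, chr10:76531355-76531654, plus strand: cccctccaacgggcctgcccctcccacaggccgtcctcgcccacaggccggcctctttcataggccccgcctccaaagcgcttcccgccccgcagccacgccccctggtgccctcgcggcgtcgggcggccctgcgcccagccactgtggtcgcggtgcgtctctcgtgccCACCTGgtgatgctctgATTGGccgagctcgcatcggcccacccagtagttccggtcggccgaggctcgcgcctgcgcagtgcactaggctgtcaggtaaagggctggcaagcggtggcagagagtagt
Ebp, chrX:8193463-8193762, minus strand: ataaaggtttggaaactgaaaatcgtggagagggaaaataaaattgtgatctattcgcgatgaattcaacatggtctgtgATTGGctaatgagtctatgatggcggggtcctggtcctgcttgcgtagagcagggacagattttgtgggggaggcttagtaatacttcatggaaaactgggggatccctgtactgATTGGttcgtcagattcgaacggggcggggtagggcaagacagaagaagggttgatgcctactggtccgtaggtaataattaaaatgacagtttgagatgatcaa

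The NF-Y box was found in 3 of the 4 windows, Idi1, Lss and Ebp, with 2 copies in Idi1, 2 in Ebp and 1 in Lss. All of these matches were on the reverse strand, as ATTGG. The same letters were present in 37.4% of the 32851 promoter windows of the table. Among the 13 windows of the 11 pathway enzymes that were named in the authors' table and matched in the promoter table, 10 held it. The E-box was found once, in Lss, and was present in 2 of the 13 pathway windows and in 20.2% of all windows. The sterol regulatory element TCACNCCAC, searched on both strands as well, was in none of the 4 windows. It was in 0 of the 13 pathway windows and in 1.24% of all windows. This says only that these exact letters are not in these windows. A match is a run of letters and was not tested as a site.

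All 5 enzymes read lower in Sip1 cKO, with both Sip1 cKO arrays below both control arrays for each gene. Of the 5, 3 passed the test across all clusters, namely Fdps, Lss and Ebp, and 2 did not, namely Acat2 and Idi1 (limma, Benjamini-Hochberg adjusted p under 0.05). Over all clusters 0.858% were called lower and 0.219% higher by the same rule, and 25.1% had both Sip1 cKO arrays below both control arrays. Since the table had been chosen by fold on these arrays, the counts for the 5 genes cannot be read against these shares. Their log2 changes had a median of -1.34, against -0.01 over all 35557 clusters and -1.29 over the 369 named genes. Leaving out any 1 of the 4 arrays left all 5 genes lower, as it must where the groups do not overlap. The change then ran from -0.78 to -0.70 for Acat2 and from -2.27 to -1.81 for Lss. With clusters under the median level left out, Acat2 and Idi1 passed as well (limma, adjusted p = 0.0134 and 0.0416). With the replicate number added to the fit as a block, however, 0 of the 5 genes passed. In whole tissue, fewer cells of a type and less RNA per cell cannot be told apart.

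**Figure D1:**
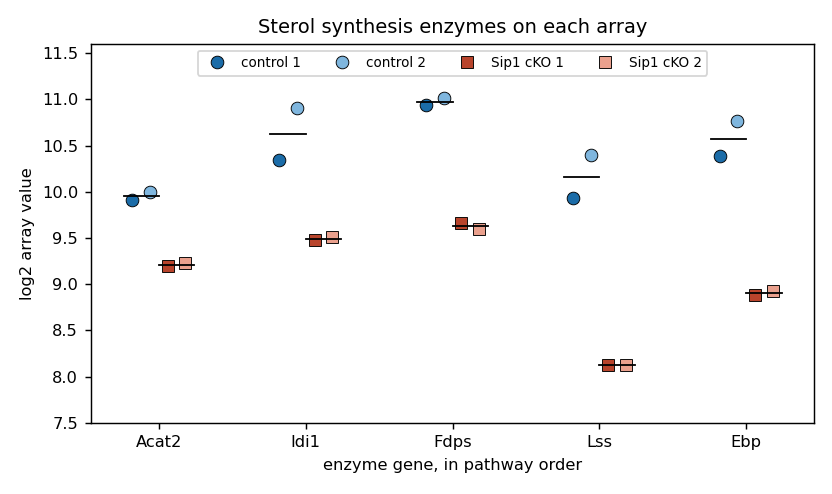
Log2 array value (vertical axis) of the 5 enzyme genes in pathway order (horizontal axis) on each of the 4 arrays, with circles for control, squares for Sip1 cKO and bars for the mean of each pair. Levels are to be compared only within a gene; the control circles of Idi1, Lss and Ebp lie apart while those of Acat2 and Fdps nearly touch, and the Sip1 cKO squares lie close together for all 5.

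Acat2 codes for the cytosolic thiolase that joins acetyl-CoA into acetoacetyl-CoA, the entry of the pathway. Its log2 values were 9.91 and 9.99 on the control arrays and 9.20 and 9.22 on the Sip1 cKO arrays. Both pairs of replicates agree within 0.08, and the groups were 0.69 apart at their nearest points. The log2 change was -0.74 with a standard error of 0.09 and a 95% interval from -0.99 to -0.49, and it missed the threshold narrowly (limma, adjusted p = 0.0583). This was the smallest change of the 5, at 59.9% of the control level.

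Idi1 codes for the isomerase that turns isopentenyl diphosphate into dimethylallyl diphosphate, the starter unit of the isoprenoid chain. It read 10.35 and 10.91 on the control arrays and 9.48 and 9.51 on the Sip1 cKO arrays. The groups did not overlap, but the control arrays differed by 0.56, the widest control gap of the 5 genes. The log2 change was -1.14 with a standard error of 0.20 and an interval from -1.67 to -0.60, and it did not pass (limma, adjusted p = 0.125). Without control replicate 2 the change was -0.85 and without control replicate 1 it was -1.42.

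The second row of Idi1, with the lower mean over the arrays, gave nearly the same result. It read 10.31 and 10.86 in control and 9.40 and 9.51 in Sip1 cKO, for a log2 change of -1.13 (limma, adjusted p = 0.124). On no array did the rows differ by more than 0.08. The row used carried the RefSeq accessions NM_145360 and NM_177960 in the authors' table and the other row only the latter. The place of either row on the genome was not given. Of the 10 named clusters nearest in identifier to the row used, 0 are genes of the chromosome on which RefSeq places Idi1, and all 10 lie together on another chromosome. For the other row 5 of the 10 were on the chromosome of Idi1, and the other 5 lay together on 1 other chromosome. For Acat2, Fdps, Lss and Ebp it was 9 or 10 of 10. Whether the row used measures the Idi1 locus or a copy of it elsewhere was not tested.

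Fdps codes for farnesyl diphosphate synthase, which makes the branch point between sterols and other isoprenoids. It read 10.94 and 11.01 in control and 9.67 and 9.60 in Sip1 cKO. The replicates of each group lay within 0.08 of each other, and the groups were 1.27 apart at their nearest points. Fdps fell by 1.34 with a standard error of 0.10, to 39.4% of control (limma, adjusted p = 0.0214), the smallest p of the 5.

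Lss codes for lanosterol synthase, which closes the sterol ring. It read 9.93 and 10.39 in control and 8.13 and 8.12 in Sip1 cKO. The Sip1 cKO arrays were the same within 0.01 while the control arrays differed by 0.46, and the groups were 1.80 apart at their nearest points. Lss fell by 2.04 with a standard error of 0.18 and an interval from -2.50 to -1.58, to 24.4% of control (limma, adjusted p = 0.0280). The adjusted p was 0.0557 without control replicate 1 and 0.122 without Sip1 cKO replicate 2.

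Ebp codes for the emopamil binding protein, the isomerase that shifts a double bond of the sterol ring after lanosterol. It read 10.39 and 10.77 in control and 8.89 and 8.93 in Sip1 cKO. As with Lss, the control arrays were the wider pair, with control replicate 2 above replicate 1 by 0.38. Ebp fell by 1.67 with a standard error of 0.15 and an interval from -2.07 to -1.26, to 31.5% of control (limma, adjusted p = 0.0305). With the replicate number as a block in limma, the adjusted p was 0.0706 for Ebp, 0.0693 for Lss and 0.0706 for Fdps. In that fit 0 of the 5 genes passed. All 5 had an unadjusted limma p under 0.05, as had 5821 of all 35557 clusters.

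The early isoprenoid enzymes were next set against the later sterol enzymes. The mean log2 change was -1.07 over Acat2, Idi1 and Fdps and -1.85 over Lss and Ebp, so later minus early came to -0.78 and the change was larger in size for the later enzymes. Relative to the control mean of each gene, the early enzymes averaged -1.07 on Sip1 cKO replicate 1 and -1.08 on replicate 2, and the later enzymes -1.86 and -1.84. On the control arrays these averages were -0.12 and 0.12 for the early enzymes and -0.21 and 0.21 for the later ones. The difference between later and early enzymes was thus -0.79 and -0.77 on the Sip1 cKO arrays against -0.09 and 0.09 on the control arrays, without overlap. In each of the 6 pairings of an early with a later gene the later gene had the more negative change. The pairings reuse the same genes, so their count adds nothing to the changes themselves. The nearest pairing was Fdps with Ebp, where later minus early was -0.32 with a standard error of 0.16 over the arrays, and the widest was Acat2 with Lss, at -1.30 with a standard error of 0.19. No p is given for these differences, since the genes were chosen by name with earlier results known, and with 2 arrays against 2 an exact permutation test cannot give a two-sided p under 0.333.

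The order of the early and later steps did not hold over all the pathway enzymes named in the authors' table. Of 21 enzymes on a list from acetyl-CoA to cholesterol, 16 carried a symbol of their own in the authors' table, 5 of 8 early and 11 of 13 later ones. The rest are missing from the means below, a larger share of the early than of the later steps. How far this, in a table chosen by fold, moved the difference was not tested. Over the 16 named enzymes the mean log2 change was -1.17 for the early and -1.09 for the later steps. Later minus early was thus 0.074, small and opposite in sign. Relative to the control mean, this difference was 0.08 and 0.06 on the Sip1 cKO arrays and -0.05 and 0.05 on the control arrays. Lss and Ebp had the most negative changes of the 16, and the other 9 later enzymes averaged -0.92. Mvd, an early enzyme that was not among the 5 genes, changed by -1.45. Later minus early was -0.019 with the later steps alone extended to all 11 named enzymes, and -0.69 with the early steps alone extended to all 5, both chosen after seeing the data. The difference seen in the 5 genes thus varied with which enzymes, above all which later ones, stood for each stage.

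**Figure D2:**
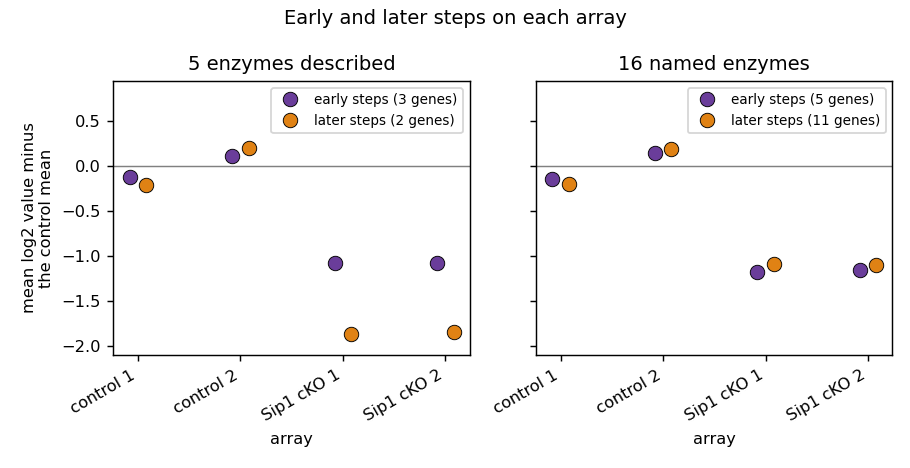
Mean log2 value of the early (purple) and later (orange) enzymes on each array, after subtracting the control mean of each gene, for the 5 enzymes described (left) and for all 16 named enzymes of the pathway (right). On the Sip1 cKO arrays the later enzymes lie near -1.86 and -1.84 and the early ones near -1.07 and -1.08 on the left, while on the right both lie between -1.17 and -1.09.

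Of the 16 named enzymes 5 fell, 0 rose and 11 did not pass, with changes from -2.04 to -0.60 and a median of -1.12. Of all 369 genes named through the same table, chosen by fold on these arrays, 204 fell, with a median of -1.29, and 0.858% of all clusters were called lower. Fdps, Lss and Ebp were among those that fell, and so was Mvd. Mvd, which removes a carboxyl group from mevalonate diphosphate ahead of Idi1, read 9.08 and 9.44 in control and 7.78 and 7.85 in Sip1 cKO, and fell by 1.45 (limma, adjusted p = 0.0342). By size of change Mvd stood between Ebp and Fdps.

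Of the steps next to Lss, Sqle, which oxidises squalene, had a log2 change of -0.94 (limma, adjusted p = 0.127) and Cyp51, which demethylates lanosterol, had -1.10 (adjusted p = 0.120). Fdft1, which makes squalene from the product of Fdps, had the smallest change of the 16, -0.60 (adjusted p = 0.127). Around Ebp, Hsd17b7, a sterol ketoreductase, had -0.67 (adjusted p = 0.206) and Sc5d, a desaturase, had -0.64 (adjusted p = 0.206). Dhcr7, a reductase of the last steps, had -1.14, Tm7sf2, another sterol reductase, -0.97, and Msmo1, a methylsterol oxidase, -0.96, with adjusted p from 0.0577 to 0.133 in the limma fit. Hmgcs1 was listed only in a row with several symbols, and Mvk, Pmvk, Lbr and Nsdhl were not analysed here. Of the close relatives of the enzymes, Acat1, Acat3 and Idi2 were not named in the table, and how far their transcripts share probes with Acat2 and Idi1 was not tested.

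**Figure D3:**
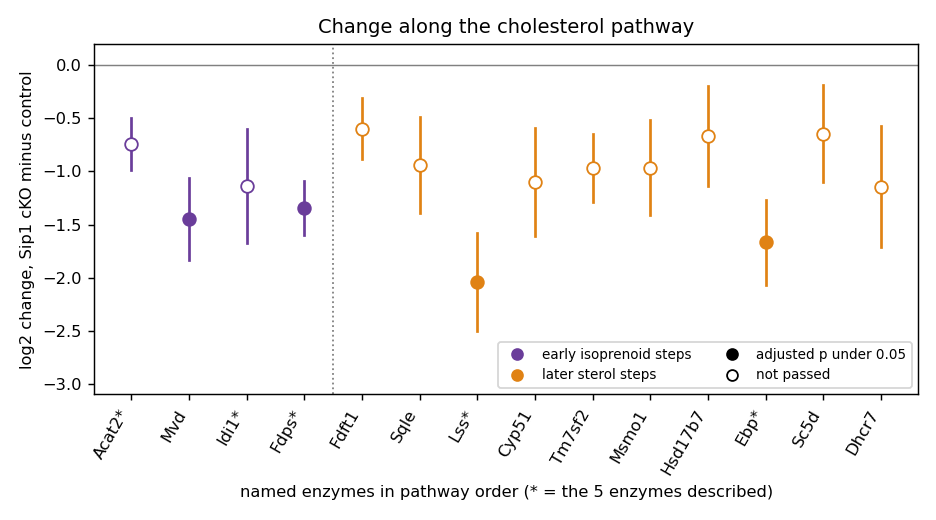
Log2 change, Sip1 cKO minus control (vertical axis), with the 95% interval of the limma fit for 14 of the 16 named enzymes in pathway order, where filled points passed the threshold and the dotted line parts early from later steps. Lss at -2.04 and Ebp at -1.67 stand lowest, and other later steps such as Fdft1 at -0.60 and Sc5d at -0.64 stand highest.

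The control arrays differed in one direction for all 5 enzymes. Control replicate 2 read above control replicate 1 by 0.08 for Acat2, 0.56 for Idi1, 0.08 for Fdps, 0.46 for Lss and 0.38 for Ebp, a mean of 0.31. Over all clusters replicate 2 was the higher one in 47%, and the median gap was -0.02. Over the 369 named genes, however, 303 were higher in replicate 2, with a median gap of 0.24. A gap as large in size as that of Idi1 was seen in 6.37% of all clusters, and one as large as those of Lss and Ebp in 10.1% and 15.2%. The gaps of Acat2 and Fdps were common, with 70.8% and 72.6% of clusters differing by as much.

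The gap did not split the 5 genes by step, since Idi1 among the early enzymes had the widest and Lss and Ebp among the later ones came next. It averaged 0.24 over the 3 early and 0.42 over the 2 later genes. In proportion to the change in Sip1 cKO, the control gap came to 49.4% for Idi1, 22.7% for Lss, 22.6% for Ebp, 11.1% for Acat2 and 5.68% for Fdps. Idi1 had a larger change than Acat2 but the larger p, and Fdps a smaller change than Lss and Ebp but the smaller p.

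The same held across the pathway. All 16 named enzymes were higher in control replicate 2, by 0.08 to 0.59 with a median of 0.41. The gaps were 0.29 on average for the 5 early and 0.39 for the 11 later steps. Dhcr7 had the widest, 0.59, and Fdps and Acat2 had the 2 narrowest of the 16. Hsd17b7 and Sc5d had control gaps of 69.8% and 68.5% of their change. Between the Sip1 cKO arrays the median size of the gap was 0.05 over the 16 enzymes, and 0.11 over all clusters.

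**Figure D4:**
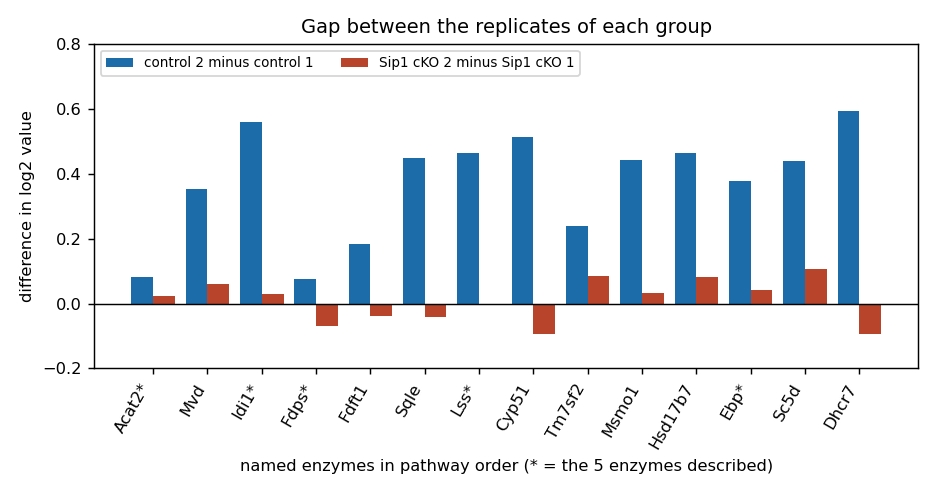
Difference in log2 value between replicate 2 and replicate 1 (vertical axis) of the control arrays (blue bars) and of the Sip1 cKO arrays (red bars) for 14 of the 16 named enzymes in pathway order. All blue bars are above 0, from 0.08 for Fdps to 0.59 for Dhcr7, while the red bars lie on both sides of 0.

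Markers of myelinating oligodendrocytes fell as well, with changes more negative than those of the enzymes. Of 11 markers of myelinating oligodendrocytes 10 were named, and all 10 fell, with log2 changes from -6.32 for Mog to -2.84 for Cnp and a median of -5.44. They too were named only through the table chosen by fold, in which 204 of 369 named genes fell. Their summed linear intensity was 48066 and 51599 on the control arrays and 2211 and 2974 on the Sip1 cKO arrays, 19.2-fold lower on average, and the lowest single log2 value was 4.45, for Opalin. The lowest log2 value of any cluster on the 4 arrays was 1.71, and the array medians lay between 6.62 and 6.70. Whether the lowest marker values were above background, which could limit the fold, was not tested. Of the 3 markers of the whole lineage, Sox10 fell by 2.12 and Olig2 fell by 0.83, and Olig1 had a change of -0.92 (limma, adjusted p = 0.179). The changes of the 5 enzymes, -2.04 to -0.74, lay closer to those of the lineage markers than to those of the myelin markers. The part of a loss of oligodendrocytes in the lower enzyme values was not tested. None of the 17 markers listed for oligodendrocyte progenitors, astrocytes, neurons, microglia and endothelial cells carried a symbol of its own in the table, and they were not analysed here.

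The 5 named genes nearest to the average profile of the 5 enzymes were outside the list of pathway genes. Of the 364 genes compared 352 were outside it too, so little can be read from this. Nearness was the Euclidean distance, over the 4 arrays, between a gene's log2 values centred on their own mean and the average centred profile of the 5 enzymes, taken over 364 other named genes. The 5 nearest were Ypel2 at a distance of 0.05, Map6d1 at 0.07, Arhgef2 at 0.07, Prox1, a homeobox factor, at 0.08 and Lims2, an adaptor of focal adhesions, at 0.08. Their changes lay between -1.41 and -1.33 and their control gaps between 0.25 and 0.32. The average change of the 5 enzymes was -1.38, while single enzymes ran from -2.04 to -0.74. A gene near the average therefore need not resemble any single enzyme. Mvd came next at 0.08, named here after its value was seen.

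The authors' deposited table gave folds close to those of the arrays. Both come from the same arrays, so the closeness is not independent evidence. In the authors' deposited table Acat2 was 1.66-fold, Idi1 2.18-fold, Fdps 2.51-fold, Lss 3.98-fold and Ebp 3.17-fold higher in control. The array values gave 1.67-fold, 2.20-fold, 2.54-fold, 4.10-fold and 3.18-fold in the same order. Acat2 was the gene of the 5 nearest to the 1.45-fold limit of the authors' deposited table, at place 354 of 420 from the highest fold, and Lss was at place 73.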

How the data were processed

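The arrays were Affymetrix MoGene-1_0-st-v1, per the file headers. Values deposited by the authors for each array are log2 values from RMA, as named in the submitters' processing notes, a method that corrects background, evens out the arrays and summarises probes per cluster. The sources used here name no RMA version, probe annotation or build. The authors' deposited table gives group means as linear intensity and as centred log2 values, and a fold, which is the higher group mean over the lower. Per the file headers, the authors had filtered it on raw expression and on a fold of at least 1.45.

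Genes were named through that table. Of the symbols standing alone, 323 were current in RefSeq GRCm38.p6, 37 were updated through the accession and 8 through an older symbol, and 7 were kept. A further 19 clusters had several symbols and 26 none. The row with the highest mean stood for a gene. Group differences were tested over all 35557 clusters with limma 3.58.1 in R 4.3.3 (lmFit, eBayes, two-sided, group as the only term), with Benjamini-Hochberg adjustment over all clusters and a threshold of 0.05. The procedure was tested on simulated data. Values are log2 and changes are Sip1 cKO minus control.

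The 5 genes, the pathway and marker lists, the motifs and the rule for named genes were chosen with earlier results of these data known. That rule took the 5 genes, Zeb2, the listed pathway genes that the table names, and the 5 genes of nearest pattern. Some genes that it takes are not reported here. Alternatives were leaving out each array, the replicate number as a block, a filter on clusters under the median level, an eBayes trend, leaving out 6614 consecutive lowest identifiers without a row in the table, a second quantile normalization, median centring, a looser threshold, the other Idi1 row and all named enzymes per stage.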

Additional observations from a re-analysis of the deposited data

How the results depend on the processing

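Every one of the 5 enzymes kept a negative change in every setting run, but for most settings this was fixed in advance. The block, the trend and the cluster filters do not alter the change itself. Leaving out an array cannot reverse it where the groups do not overlap. The larger change of the later over the early enzymes was the result that did not hold. Later minus early was -0.78 for the 5 genes, -0.87 to -0.69 with any 1 array left out, and 0.074 with all 16 named enzymes. Chosen after seeing the data, it was -0.019 with the later steps alone extended and -0.69 with the early steps alone extended. Of the 5 genes, 3 passed as reported, 5 passed with the filter on dim clusters and 5 without the lowest identifiers, where fewer clusters are tested. With any 1 array left out 0 of the 5 passed, where the lone array was taken to vary as the other group does. The labels do not say whether a replicate number marks a shared litter or batch. Deviations of same-numbered arrays had r = 0.0764 across clusters, and with the replicate block 0 of the 5 passed. Over all clusters 383 passed as reported, 603 with an eBayes trend (487 lower), 894 with the dim filter (650 lower), 818 without the lowest identifiers (600 lower), 712 at an adjusted p under 0.1, 111 with the replicate block and 0 to 60 with 1 array left out. At 0 calls, without control replicate 1 or 2, limma still gave 5560 and 6596 clusters at an unadjusted p under 0.05. Both scalings and the other Idi1 row left 3 of the 5 past the threshold, and left the mean control gap between 0.30 and 0.36.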
